A study of Mus musculus with 4 samples.

Results

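Binding of Nrf2 was profiled by chromatin immunoprecipitation and sequencing (ChIP-seq) in mouse esophagus, and the regions described here are those that lay inside a gene, more than 1 kb and at most 20 kb from its start. They were taken from genes listed with 1 active region, the table's term for a region of called intervals, and placed by the interval closest to the gene start, with 1 entry for each interval shared between genes. This gave 230 regions of 1241 such single-region loci (18.5%), in a table of 1727 called intervals. The study compared 3 genotypes on the C57BL/6 strain, Wild-type, Nrf2KO and Keap1KO, with 1 ChIP library each and the same Nrf2 antibody. A pooled input library was the remaining sample and was not analysed here. The labels give no age, no deleted exon or driver of deletion, and no number of animals behind a library, and the tissue label could not be checked from peak heights.

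Nrf2 (gene Nfe2l2) is a transcription factor that pairs with small Maf proteins and binds antioxidant response elements, short DNA motifs next to genes for glutathione use, peroxide removal, detoxification and NADPH supply. Keap1 binds Nrf2 in the cytoplasm and directs it to ubiquitination and breakdown, so Nrf2 builds up when Keap1 is lost. Esophageal squamous epithelium is a tissue where Nrf2 activity after loss of Keap1 is known for thickening and keratinization. The Nrf2KO library, as labelled, gives the level of the antibody without its target, which peak heights alone cannot check.

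The only stretches of sequence at hand for these regions were the 250 bases upstream of RefSeq transcript starts (build GRCm38.p6, which shares its coordinates with mm10). In 6 of the 230 regions the listed position fell into such a window, because the gene, or another gene, has a further start inside the gene body. These windows are shown because they are the places where a listed position and printed letters coincide. Each was searched on both strands for TGACNNNGC, the core of the antioxidant response element, and matches are in capitals. The windows lie upstream of internal starts of Fetub (chr16:22919972-22920221, plus strand), Pacsin2 (chr15:83447881-83448130, minus strand), Slc20a1 (chr2:129206846-129207095, plus strand) and Tbcel (chr9:42461429-42461678, minus strand), and of the starts of Gm36043 inside Cd274 (chr19:29384952-29385201, minus strand) and of Sox6os inside Sox6 (chr7:116031729-116031978, plus strand). All are written 5′ to 3′ on the strand of the start.
Tbcel: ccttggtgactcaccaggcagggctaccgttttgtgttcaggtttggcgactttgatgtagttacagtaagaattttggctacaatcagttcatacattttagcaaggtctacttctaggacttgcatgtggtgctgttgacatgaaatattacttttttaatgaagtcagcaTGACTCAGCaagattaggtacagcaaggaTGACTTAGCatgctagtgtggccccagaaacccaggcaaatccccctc
Pacsin2: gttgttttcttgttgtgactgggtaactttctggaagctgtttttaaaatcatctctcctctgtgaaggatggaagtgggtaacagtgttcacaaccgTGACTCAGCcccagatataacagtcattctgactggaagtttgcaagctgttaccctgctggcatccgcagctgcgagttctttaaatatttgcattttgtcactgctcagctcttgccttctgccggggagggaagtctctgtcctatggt
Cd274: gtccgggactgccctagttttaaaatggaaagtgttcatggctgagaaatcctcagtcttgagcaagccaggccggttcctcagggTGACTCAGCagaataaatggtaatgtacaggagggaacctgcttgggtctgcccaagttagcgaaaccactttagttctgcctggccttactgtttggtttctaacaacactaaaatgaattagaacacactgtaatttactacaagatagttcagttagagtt
Fetub: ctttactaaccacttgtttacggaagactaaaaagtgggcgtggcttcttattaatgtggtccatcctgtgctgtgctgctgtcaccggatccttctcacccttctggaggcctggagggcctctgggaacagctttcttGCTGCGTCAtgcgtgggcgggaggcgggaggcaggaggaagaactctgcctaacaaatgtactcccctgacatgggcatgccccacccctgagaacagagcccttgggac
Slc20a1: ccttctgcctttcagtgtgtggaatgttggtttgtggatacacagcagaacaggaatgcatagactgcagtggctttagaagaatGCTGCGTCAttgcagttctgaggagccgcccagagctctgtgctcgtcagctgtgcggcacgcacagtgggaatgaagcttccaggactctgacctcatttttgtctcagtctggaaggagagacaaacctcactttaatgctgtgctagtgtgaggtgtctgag
Sox6: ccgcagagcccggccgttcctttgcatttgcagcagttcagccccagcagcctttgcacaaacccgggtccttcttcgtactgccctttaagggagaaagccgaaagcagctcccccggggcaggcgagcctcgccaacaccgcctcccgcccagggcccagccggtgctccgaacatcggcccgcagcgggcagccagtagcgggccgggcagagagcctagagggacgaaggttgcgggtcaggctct

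Of these 6 windows, 5 held the motif. The window in Sox6 did not, which says only that these letters are absent from it. TGACTCAGC was the match at Tbcel, Pacsin2 and Cd274, and it contains TGACTCA, a form of the AP-1 motif TGANTCA. Tbcel had a further match, TGACTTAGC. At Fetub and Slc20a1 the match was TGACGCAGC on the opposite strand. The centre of a match lay 9 bp from the listed position at Cd274, 20 bp at Fetub, 55 bp at Slc20a1, 60 bp at Pacsin2, and 32 and 61 bp at Tbcel. Over all 32851 RefSeq upstream windows, 10.2% held TGACNNNGC and 6.75% held TGANTCA. Among windows that held the listed position of a locus within 1 kb of a gene start, TGACNNNGC was found in 37 of 109 (33.9%). It was found in 2 of 6 windows at loci outside the gene (33.3%) and in the 1 window at a locus beyond 20 kb. The first starts of the genes described here, matched for 168 of the 230, held it in 22 windows (13.1%). These are counts of letters, and a match is not a measured site.

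Peak heights at these windows were low in wild-type and Nrf2KO. Heights written as 3 numbers stand in the order wild-type, Nrf2KO, Keap1KO. Tbcel, which encodes a tubulin cofactor relative, had 26 in Keap1KO beside 7 in wild-type and 0 in Nrf2KO. Fetub, the fetuin B gene, had 6, 3 and 30. Pacsin2, a membrane-bending protein gene, had 2, 3 and 20, and Cd274, which encodes the immune checkpoint ligand PD-L1, had 2, 4 and 18. Keap1KO stood above both other libraries at each of these. Slc20a1, a phosphate transporter gene, had 8, 5 and 16, and Sox6, a transcription factor gene, had the smallest step, with 6, 6 and 11.

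Height here is the peak height the authors deposited for each ChIP library, a signal whose unit and scaling are not stated. At the 1681 genes with 1 active region, 100% of the heights were whole numbers. Sequencing depth is unknown, so no counting error is given. Unequal sequencing of the libraries and unequal binding cannot be told apart. With 1 library per genotype there is no replicate error and no test. Folds are of heights with 1 added to each, which understates the change of low regions, and 2-fold describes size only.

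Signal at the 230 regions was highest in Keap1KO at 227 of them. Over all single-region loci, Keap1KO was above wild-type at 98.5% and above Nrf2KO at 98.8%, so this is near the general share. In Keap1KO the median height was 19, with quartiles of 15 and 24 and a maximum of 71. In wild-type it was 4.50, with quartiles of 3 and 7 and a maximum of 22. In Nrf2KO it was 4, with quartiles of 2 and 5.75 and a maximum of 14. Intervals were called in Keap1KO at 229 regions (99% of all single-region loci), in wild-type at 5 (3.22% of all), in both at 4 (2.26% of all) and in Nrf2KO at 0 (0% of all). Nearly every region was thus listed because of its Keap1KO height, which selects that height upwards and, where wild-type was not called, the wild-type height downwards. Wild-type was listed at 0 at 3 regions (10 of all 1241 single-region loci), and Nrf2KO at 14 (48 of all 1241).

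The 10 regions tallest in Keap1KO, at 46 to 71, lay in genes of varied function. Catalase (Cat), which breaks down hydrogen peroxide, had the tallest region (GeneID 12359), at position 103480416 of chromosome 2 and 4737 bp from the gene start, with 71 in Keap1KO beside 9 in wild-type and 3 in Nrf2KO. Pfkfb4, an enzyme that sets the level of a glycolytic activator, had 11, 5 and 58 at 17954 bp (chromosome 9, position 109009856). Creld1 had 13, 4 and 56 at 3887 bp. Its interval is also listed under Il17rc and Prrt3, as lying beyond their ends. In all 3 the order was Keap1KO, wild-type, Nrf2KO, with Keap1KO over wild-type 7.20-fold at Cat, 4.92-fold at Pfkfb4 and 4.07-fold at Creld1.

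Panx1, which encodes a membrane channel that releases ATP, had 54 in Keap1KO beside 4 in wild-type and 3 in Nrf2KO, so the wild-type library was near the Nrf2KO level while Keap1KO was 11-fold above wild-type. Eif4ebp1, a repressor of cap-dependent translation, was alike, with 7, 7 and 51. The region in 1700028I16Rik had 9, 2 and 50. Mvp, the major vault protein gene, had 13, 8 and 47, and Fnbp1, which encodes an F-BAR protein that bends membranes, had 13, 2 and 46. Heights in Keap1KO of at least 30 were found at 33 of the 230 regions. That share is not given over all single-region loci, where the upper quartile of Keap1KO height was 23, beside 24 here.

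**Figure D1:**
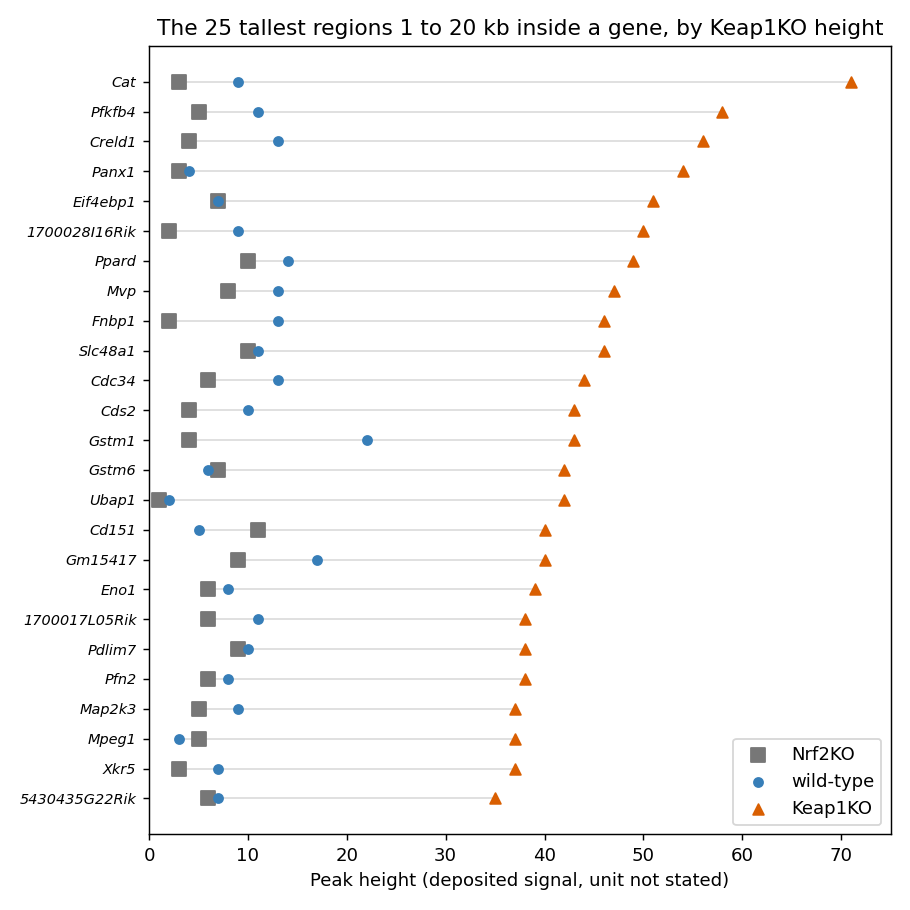
Peak height on the horizontal axis (deposited signal, unit not stated) of the 25 regions tallest in Keap1KO, 1 row per gene, with a circle for wild-type, a square for Nrf2KO and a triangle for Keap1KO, 1 library each. All triangles, from 35 at 5430435G22Rik to 71 at Cat, stand to the right of both other libraries, and at Eif4ebp1 wild-type and Nrf2KO coincide at 7.

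Genes of the Nrf2 pathway were present with 11 regions from lists of 184 genes, of which 72 had any entry in the table. Their median heights were 6, 3 and 35, beside 4.50, 4 and 19 over all 230 regions. A Keap1KO height of at least 2-fold the wild-type one was found at 10 of the 11, all but Gstm1 (86.7% of all 1241 single-region loci), and of at least 2-fold the Nrf2KO one at 11 (83.8% of all). The wild-type height exceeded that of Nrf2KO at 8 of the 11 (52.1% of all), and by 2-fold or more at 5 (20.1% of all). On the log2 scale their median Keap1KO to wild-type ratio was 2.19 (1.74 over all 1241 loci), that of wild-type to Nrf2KO 0.81 (0.17) and that of Keap1KO to Nrf2KO 3.00 (1.89).

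Glutathione transferases, which couple glutathione to reactive compounds, gave 5 of the 11, from a list of 26 genes with 13 in the table. The mu-class genes Gstm6, Gstm3 and Gstm1 lie in a cluster on chromosome 3 and each had its region at a like depth, 4069, 4230 and 4469 bp from the start. Gstm1 had 43 in Keap1KO beside 22 in wild-type and 4 in Nrf2KO, and was the tallest of the 230 in wild-type. Gstm3 had 8, 2 and 35. Gstm6 had 6, 7 and 42, with wild-type no higher than Nrf2KO, and its interval is also listed 7935 bp upstream of Gstm7. Keap1KO heights were alike across the 3 while wild-type heights were not. These paralogs are near-identical in parts, so how reads were divided among them is uncertain. Gstm2, in the same cluster, had its interval 271 bp into the gene and is outside the set, with 4, 1 and 12.

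Mgst2, a microsomal transferase, had 20 in Keap1KO beside 5 in wild-type and 1 in Nrf2KO at 9687 bp. Gsto2, of the omega class, had 2, 2 and 14 at 19191 bp, the lowest Keap1KO height of the 11. Its interval is also listed beyond the end of Itprip.

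Among the other pathway genes, Prdx6, a peroxiredoxin that reduces phospholipid hydroperoxides, had 6, 3 and 31 (wild-type, Nrf2KO, Keap1KO) at 2366 bp. Abcc3, an exporter of conjugated compounds, had 3, 1 and 21 at 2032 bp. Slc48a1, a heme transporter gene, had 11, 10 and 46 at 2483 bp. Slc3a2, the heavy chain shared by several amino acid transporters including the cystine importer, had 3, 6 and 21 at 10185 bp. Its listed position lay 713 bp beyond a further start of Slc3a2. Ppard, a nuclear receptor gene of lipid metabolism and epithelial differentiation, had 14, 10 and 49 at 4094 bp. Slc48a1 and Ppard were among the 9 of 230 regions with at least 10 in Nrf2KO, and there Keap1KO over Nrf2KO was 4.27-fold and 4.55-fold, against 18-fold at Cat. The share with at least 10 in Nrf2KO is not given over all single-region loci. The upper quartile of Nrf2KO height was 7 there and 5.75 in this set.

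Lists without any region in this set were those of quinone, carbonyl, aldehyde and epoxide enzymes (6 single-region loci elsewhere), heme and iron genes (1) and NADPH and pentose phosphate genes (1). The heme transporter gene Slc48a1 was counted in the list of glucuronidation and export. Nadkd1, a NAD kinase gene that is on none of the pathway lists, had a region with 4, 1 and 27 at 15812 bp. Of the 40 single-region loci of pathway genes, 11 were in this set, 19 lay within 1 kb of a gene start, 8 outside the gene and 2 beyond 20 kb inside it. The median Keap1KO height of the 19 near a start was 44. On the log2 scale their median Keap1KO to wild-type ratio was 2.17, and that of wild-type to Nrf2KO 0.85, where the 11 had 2.19 and 0.81.

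Of the glycolysis list, 2 of 32 genes had a region here, from 3 single-region loci. Besides Pfkfb4 this was Eno1, the enolase gene, with 8, 6 and 39 at 2835 bp. Of the lists of squamous epithelium, basal genes (30) and differentiation genes (50) had 0 regions here, from 4 and 2 single-region loci. With so few loci and a share of 18.5% over all, nothing is read from that absence. Genes off the lists were not counted, such as the keratin gene Krt24, with 2, 0 and 14. Of 31 AP-1 and immediate early genes, 2 had a region here, from 7 single-region loci. Fosl1, a subunit of AP-1, had 4, 2 and 27 at 1118 bp, and Klf6, a Krüppel-like factor gene, had 1, 2 and 12 at 1151 bp. The proteasome list of 46 had 2, from 14 single-region loci, Psmd5 with 5, 4 and 16 and Psmc2 with 5, 6 and 14.

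Of the list of muscle genes, 3 of 33 had a region here, from 4 single-region loci. Flnc, a filamin gene, had 7, 4 and 28, Tpm1, a tropomyosin gene, 6, 4 and 15, and Synm, an intermediate filament gene, 13, 7 and 13. The list of fibroblast, endothelial and nerve genes (25) had 0, from 2 single-region loci. That of immune genes (23) had 0 single-region loci of any class, so its absence here was fixed beforehand. Of the autophagy and lysosome list of 39, with 3 single-region loci, only Tfe3 had a region here. It encodes a transcription factor of lysosome and autophagy genes and had 6, 0 and 21. Of the lipid list, besides Ppard, Agpat9, an acyltransferase gene of triglyceride synthesis, had 4, 0 and 23 and Elovl7, a fatty acid elongase gene, 5, 1 and 15.

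By symbol, the set held 7 of 25 single-region loci of solute carrier genes, 7 of 29 of small GTPases and their regulators and 6 of 32 of ubiquitin ligases, conjugating enzymes and deubiquitinases. It held 6 of 28 loci of genes named as kinases or phosphatases, 2 of 9 of collagens, laminins and integrins, 3 of 4 of tetraspanins and 1 of 23 of zinc finger genes, Zfp395. The share over all single-region loci was 18.5%, and these families are small. Genes of a family under other symbols, such as Cdc34 and the zinc finger gene Klf6, were not counted. The counts thus depend on the symbols used, and no family is read as rare or frequent here. Cd151, a tetraspanin bound to laminin-binding integrins at the base of epithelia, had 40 in Keap1KO beside 5 in wild-type and 11 in Nrf2KO. Tspan17 had 1, 0 and 25, and Cd9 5, 3 and 12. The interval of Cd151 is also listed under Pnpla2, Efcab4a, Polr2l and Tspan4, and lay 203 bp beyond a further start of Cd151. Ube2o, a ubiquitin-conjugating enzyme gene, had 6, 3 and 34, and Map2k3, a kinase gene of the p38 pathway, 9, 5 and 37.

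Over the whole set, Keap1KO exceeded wild-type by 2-fold or more at 209 of the 230 regions (90.9%, against 86.7% of all single-region loci) and was lower by that much at 0 (0.322% of all). It was above wild-type by any amount at 227 (98.5% of all). The median log2 ratio was 1.91 (quartiles 1.42 and 2.32). The 5 largest ratios were at regions with almost no wild-type signal. Sqrdl, a sulfide oxidizing enzyme gene, had 14 in Keap1KO beside 0 in wild-type and 2 in Nrf2KO. Gpr137c had 0, 2 and 13. Ubap1, of the endosomal sorting machinery, had 2, 1 and 42, and Dync1h1, the dynein heavy chain gene, had 1, 3 and 24. With Tspan17 these make up the 5, and the Keap1KO height was tall at Ubap1 but not at Sqrdl and Gpr137c.

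The 5 lowest Keap1KO over wild-type ratios were at Tnrc6c, Tpm3, Synm, Dido1 and Heyl. Tnrc6c, a gene of microRNA silencing, had 10 in Keap1KO beside 13 in wild-type and 4 in Nrf2KO, and was the one region called in wild-type only. Tpm3, a tropomyosin gene, had 10 in each library. Dido1 had 10, 6 and 12 and was called in both wild-type and Keap1KO. Heyl, a repressor gene downstream of Notch, had 10, 5 and 12.

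The 5 regions called in wild-type were Tnrc6c and Dido1, low in Keap1KO, and Gstm1, Fnbp1 and Gm15417, tall in it. Gm15417 had 40 in Keap1KO beside 17 in wild-type and 9 in Nrf2KO at 3064 bp. That interval is also listed 1725 bp upstream of Zbtb7b, a gene with several active regions whose start is closer than the listed one of Gm15417. A further start of Gm15417 was closer still, at 638 bp. Other high wild-type regions, at Ppard (14), Creld1 (13), Mvp (13) and Cdc34 (13), a ubiquitin-conjugating enzyme gene, were not called there.

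Between wild-type and Nrf2KO the wild-type height was the larger at 136 of the 230 regions (59.1%, against 52.1% of all single-region loci), equal at 29 and below at 65. Scaling wild-type by the ratio of the Nrf2KO to the wild-type total over all loci, 0.880, gave 133 above (50.6% of all) and 97 below, as equal heights then fell below, and so did 3 regions that had stood above, such as Slc48a1. As deposited, wild-type was at least 2-fold above at 59 (25.7%, against 20.1% of all) and at least 2-fold below at 18 (9.19% of all). The median log2 ratio was 0.32 (quartiles −0.26 and 1.00). The largest ratios all rest on 0 in Nrf2KO. Enc1, an actin-binding protein gene, had 8 in wild-type and 13 in Keap1KO. B3galnt2, a glycosyltransferase gene, had 7 and 18, Vash1, an inhibitor of angiogenesis, had 6 and 20, and Tbcel and Tfe3 are given above. Nrf2KO at 0 leaves no fold to state, so these are differences of 6 to 8 in height.

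The lowest wild-type over Nrf2KO ratios included the tallest Nrf2KO regions. Gt(ROSA)26Sor, a non-coding locus widely used for transgene insertion, had 17 in Keap1KO beside 2 in wild-type and 14 in Nrf2KO, at 1052 bp, and its interval is also listed 1447 bp upstream of Setd5 and beyond the end of Thumpd3. Hdac5, a histone deacetylase gene, had 3, 12 and 22. Trim29 had 0, 6 and 11, Bnipl 2, 8 and 17, and Sqrdl 0, 2 and 14. At Gt(ROSA)26Sor, Hdac5 and Trim29, Keap1KO was less than 2-fold above Nrf2KO, at 1.20-fold, 1.77-fold and 1.71-fold.

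Against Nrf2KO, Keap1KO was 2-fold or more higher at 216 regions (93.9%, against 83.8% of all single-region loci) and at least 2-fold lower at 0 (0.161% of all), with a median log2 ratio of 2.17 (quartiles 1.70 and 2.79). The largest ratios were at Tbcel, Tspan17, Cep192, Agpat9 and Tfe3, each at 0 in Nrf2KO with 21 to 26 in Keap1KO. Cep192, a centrosome gene, had 3 in wild-type and 24 in Keap1KO. Keap1KO was at least 2-fold above both other libraries at 200 of the 230 (87.0%, against 77.5% of all). These comparisons share libraries and are not independent of each other.

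The wild-type excess over Nrf2KO was larger at the regions tallest in Keap1KO. That library does not enter this ratio, but 229 of the 230 regions were called in it, so the split is by the signal that listed them. Adding 1 to each height also pulls ratios at low regions toward 0. The same split over all single-region loci is not given, and nothing is called particular to the set from it. Among the 57 regions with 25 to 71 in Keap1KO, wild-type was above Nrf2KO at 44 (77.2%) and the median log2 ratio was 0.65 (quartiles 0.14 and 1.00). Among the 71 regions with 9 to 15 it was above at 37 (52.1%), with a median of 0.19. The 2 groups between, at 16 to 19 and 20 to 24, had medians of 0.26 and 0.21. The median Nrf2KO height was 3 in the lowest group and 4 in the others, while the wild-type median went from 4 to 7. The step thus lay between the tallest group and the rest.

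**Figure D2:**
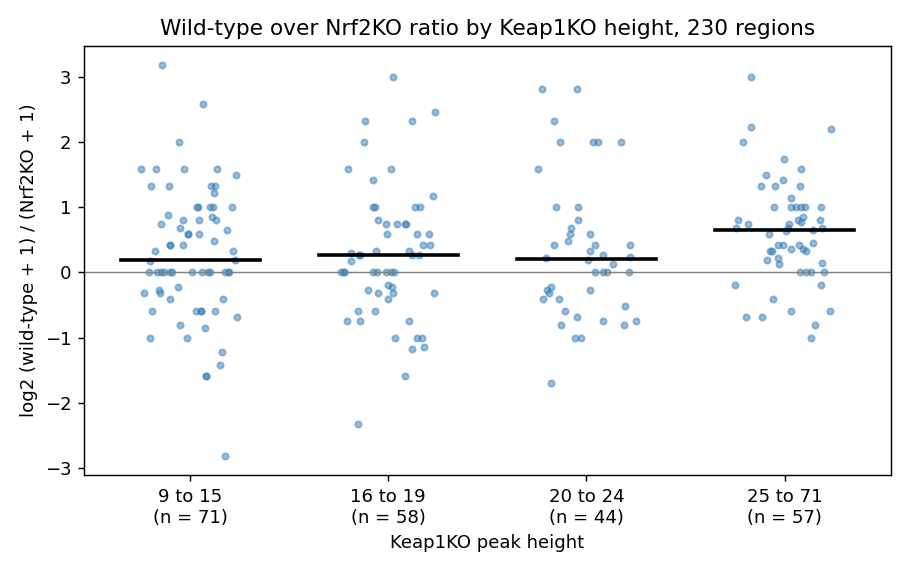
The log2 ratio of wild-type to Nrf2KO height, with 1 added to each, on the vertical axis for the 230 regions in 4 groups by Keap1KO height. Points are regions and bars are medians, 0.19, 0.26, 0.21 and 0.65 from the lowest to the tallest group.

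Along the gene, regions were spread over the whole span of distances, with a median of 7638 bp (quartiles 3341 and 13939). Heights changed little with distance. In the bins of 1 to 2 kb (28 regions), 2 to 5 kb (58), 5 to 10 kb (58) and 10 to 20 kb (86), the median Keap1KO height was 16, 20.5, 19 and 18. The median Nrf2KO height was 4, 4, 4 and 3, and that of wild-type 4, 6, 5 and 4. Median log2 ratios of Keap1KO to wild-type were 2.06, 1.95, 1.74 and 1.93, and those of wild-type to Nrf2KO were 0.26, 0.32, 0.32 and 0.32. The upper quartile of Keap1KO height was 35 at 2 to 5 kb, where Cat, Creld1, Ppard, Slc48a1 and the Gstm regions lie, and 21.8 to 23 in the other bins.

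**Figure D3:**
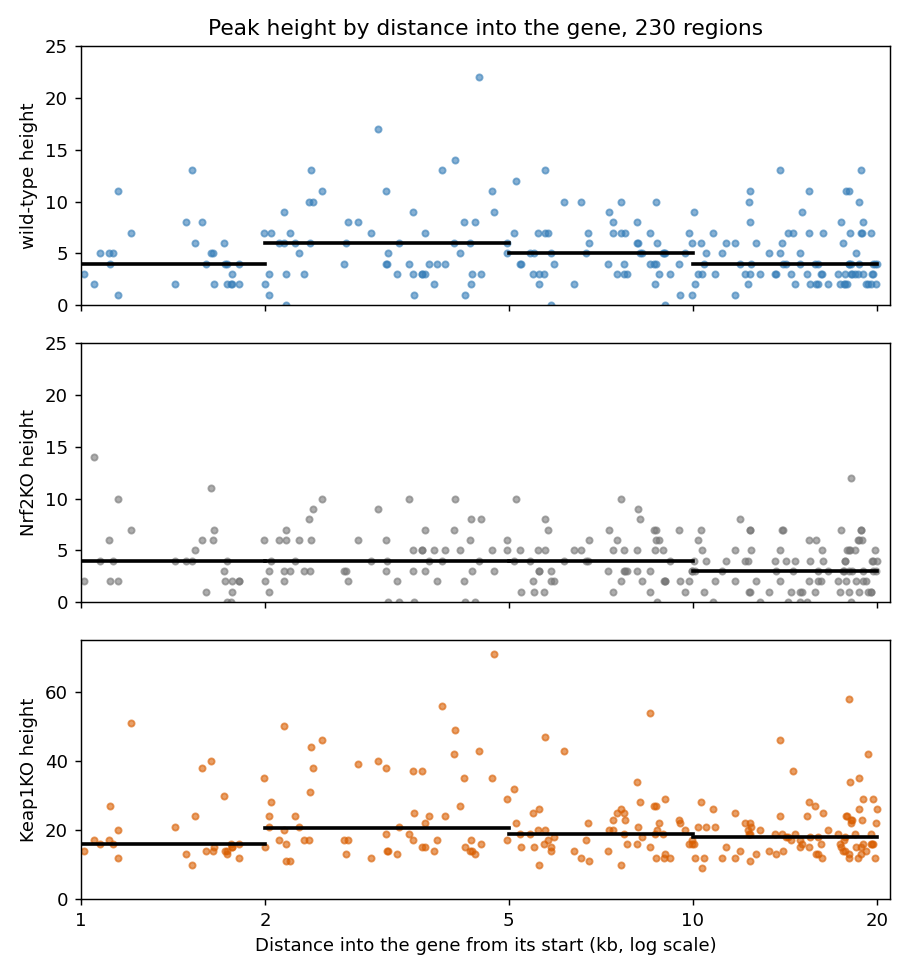
Peak height in wild-type, Nrf2KO and Keap1KO (panels, with different vertical scales) against distance from the gene start in kb on a log scale, 1 point per region. Bars are the medians of the 4 distance bins, 16 to 20.5 in Keap1KO, 4 to 6 in wild-type and 3 to 4 in Nrf2KO, and heights above 45 in Keap1KO occur in every bin, from Eif4ebp1 at 1209 bp to Pfkfb4 at 17954 bp.

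The genes holding these regions had a median length of 28911 bp, and the listed position lay at a median of 24.3% of the gene's length, with 117 regions in the first 25% and 23 in the last 25%. The table does not place intervals in exons or introns. Of the 230 genes, 228 were matched to RefSeq by identifier and 211 were protein-coding. The strands were even, with 114 on plus and 116 on minus. Listed positions were multiples of 16 bp at 224 regions, which sets the resolution of a position. At the lower limit, Bag2 (1014 bp; 3, 2 and 14) and Gt(ROSA)26Sor lay just inside, and Ube2k (1000 bp; 2, 1 and 13) and Tlk2 (934 bp; 5, 2 and 10) just outside. At the upper limit, Mll1 (19994 bp; 4, 4 and 26) and Prrx2 (19929 bp; 2, 3 and 22) lay inside, and Wwtr1 (20102 bp; 3, 5 and 14) and Twsg1 (20115 bp; 4, 5 and 13) outside.

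The label of a position inside the gene depended on which start and which gene was read. Of the 230 regions, 180 were listed under 1 gene and 50 under more. Besides those noted above, the 50 included Fosl1, Klf6, Mvp, Slc48a1, Gstm1, Dync1h1, Gpr137c and Tspan17. The intervals of Gm15417, Bnipl and Gsto2 were also listed under a gene with several active regions. Among the RefSeq start windows used here, a start other than the listed one lay within 1 kb at 15 regions, of the same gene at 13 and of another gene at 2. Among the 13 were Slc3a2 (713 bp), Psmc2 (181 bp), Dido1 (790 bp), Tpm3 (767 bp) and Sqrdl (481 bp). Starts outside these windows were not counted, so 15 is a lower limit, and 5 regions on chromosome 18 were not analysed for starts. At these 15 the median heights were 6, 6 and 18, and Keap1KO exceeded Nrf2KO by 2-fold or more at 11. At the 210 regions over 1 kb from every start among the windows, the medians were 4.50, 4 and 19, and this held at 201.

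Compared with other single-region loci, the set differed most from loci near gene starts. At the 381 loci within 1 kb of a start, the median height in Nrf2KO was 7 (quartiles 5 and 9), that in wild-type 6 (5 and 9) and that in Keap1KO 17 (13 and 23). On the log2 scale the median Keap1KO to wild-type ratio was 1.39 there, that of wild-type to Nrf2KO 0.00 and that of Keap1KO to Nrf2KO 1.26, each below those of the 230 regions. At the 318 loci deeper than 20 kb in a gene the medians were 1.84, 0.32 and 2.20, with heights of 4, 3 and 17. At the 312 loci outside the gene they were 1.87, 0.22 and 2.07, with heights of 5, 4 and 18. The gap in Nrf2KO height between the set and the start loci was 3 in the medians, with quartile ranges of 2 to 5.75 and 5 to 9. These are descriptions over loci of the same 3 libraries, with no test of the difference, and nothing is called particular to the set from them.

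**Figure D4:**
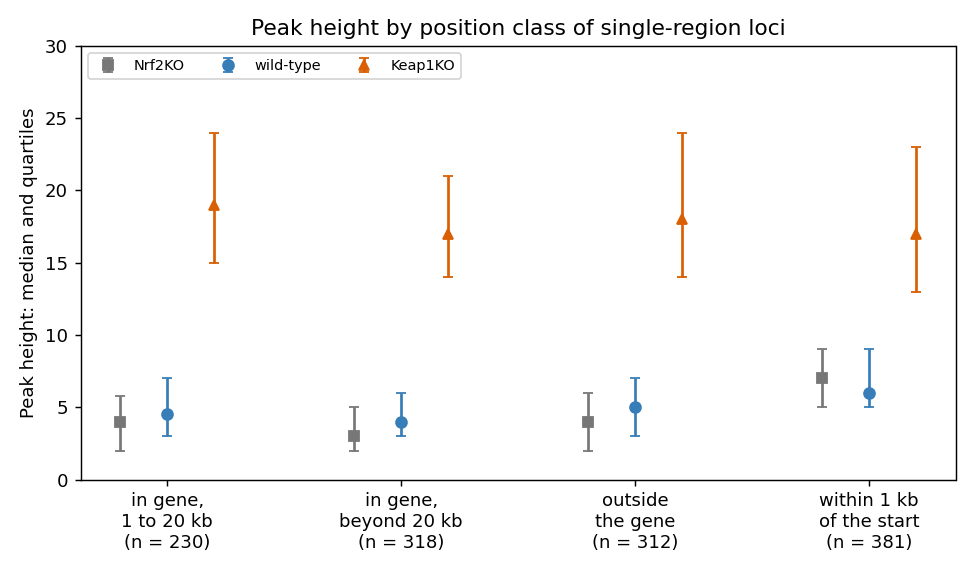
Median peak height with quartiles (bars) in Nrf2KO, wild-type and Keap1KO, 1 library each, for single-region loci in 4 position classes. Keap1KO medians span 17 to 19 in all classes, whereas the Nrf2KO median is 7 within 1 kb of a start and 3 to 4 elsewhere.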

How the data were processed

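ChIP-seq with 1 Nrf2 antibody was carried out by a commercial laboratory on frozen esophagus, per the labels' protocols. The submitters' processing notes list BWA, MACS2 2.1.0 and mm10. Their settings, the depth and any scaling were not given in the sources used. Per the file headers, the deposited signal is an average peak height per gene and library, and flags mark called intervals. The deposited whole-number flags and region counts were used as given, and 0 per-sample columns were left out.

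Positions were computed from gene start, strand and distance, and every interval came out at 1 position. Gene ends lay within 1 kb of RefSeq for 78.3% of 1878 matched genes. Ratios used a pseudocount of 1 (Python 3.11.15, pandas 2.3.3, numpy 2.4.6) and were tested on simulated data. The simulated baselines were set well above most wild-type and Nrf2KO heights here, so that test does not cover ratios at low heights. No test was run, with 1 library per genotype. Regions and gene lists were chosen with earlier results of these data known. Named genes were the 10 tallest in Keap1KO, the 5 at each end of the ratios to wild-type and of wild-type to Nrf2KO, the 5 largest Keap1KO over Nrf2KO, the 5 highest in wild-type and in Nrf2KO, those called in wild-type, the pathway and epithelium lists, and the neighbours of each distance limit, with ties broken by Keap1KO height. Other lists were given by up to 4 examples. Cdc34, Ube2o, Map2k3, Cd9, the genes of the printed windows and those under other observations were chosen after their values were seen. Alternatives tried were other pseudocounts, filters, distance limits, calls and a scaling.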

Additional observations from a re-analysis of the deposited data

How the results depend on the processing

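No paired analysis was possible because there was only 1 library for each genotype. A margin on size was used in place of a test: the 95% order-statistic interval of a median, the exact binomial interval of a share, and 1.5-fold for counts and for single genes. These intervals run over regions of the same libraries, so they give no error between libraries. Some values could not move, such as a count of 0 where regions were only left out. Of 499 values under an alternative, 1 changed sign (log2 wild-type over Nrf2KO at Slc48a1, from 0.13 to −0.04 with the scaling), and 79 of the main results and 304 others stayed within the margin, while 23 and 93 moved. A pseudocount of 5 shrank the median log2 ratios to 1.39 (Keap1KO over wild-type), 0.17 (wild-type over Nrf2KO) and 1.49 (Keap1KO over Nrf2KO), with 18 regions at least 2-fold above and 3 below Nrf2KO in wild-type. The 108 regions whose mean height reached the median over all single-region loci left 96, 22 and 101 at least 2-fold higher in the same 3 comparisons, and 6 below Nrf2KO in wild-type. With regions at 1 to 10 kb these were 130, 33 and 136 of 144. Scaling wild-type to the Nrf2KO total, added after seeing the data like the limit to regions over 1 kb from every start, lowered wild-type heights by a factor whose log2 is −0.18 and gave medians of 2.05 for log2 Keap1KO over wild-type and 0.18 for log2 wild-type over Nrf2KO, with wild-type above Nrf2KO at 42 of the 57 tallest regions and 37 of the 71 lowest. Requiring a height of 18 for a call left 123 in Keap1KO, 1 in wild-type and 1 in both. Counting any height of at least 12 gave 10 in wild-type, 2 in Nrf2KO and 9 in both wild-type and Keap1KO. Shares over all single-region loci at heights of 18 and 12 are not given, so nothing is read from these counts about the set. The set was 16.3% of single-region loci at 2 to 20 kb, 11.6% at 1 to 10 kb and 15.2% of gene entries with shared intervals kept. Filters leave fewer regions and a larger pseudocount pulls ratios toward 0. For the scaling and the calls the cause was not tested. Unknown depth limits all ratios between libraries.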

Other observations

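Some regions lay in genes of cytokines, growth factors and their receptors. These were picked out after their values were seen, from no fixed list, and nothing is drawn from them as a group. Tnfrsf1a, a receptor for tumor necrosis factor, had 29 in Keap1KO beside 5 in wild-type and 5 in Nrf2KO. Its interval is also listed under Scnn1a and Plekhg6, as lying beyond their ends. Csf1, a growth factor of macrophages, had 4, 7 and 23 (wild-type, Nrf2KO, Keap1KO). Il33, an alarmin of epithelial cells, had 3, 2 and 16, and Il20rb, a receptor chain of keratinocytes, 3, 4 and 16. Il6ra had 6, 3 and 14, Il4ra 3, 3 and 13, and Il17rd 2, 3 and 17. Bmp6 had 7, 5 and 20. Tgfb2 had 3, 5 and 9, the lowest Keap1KO height of the 230 regions. Those named here span 2 to 7 in wild-type and 2 to 7 in Nrf2KO, around the medians of the whole set.

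Duox1, an oxidase gene that produces hydrogen peroxide at epithelial surfaces, had 2, 1 and 15 at 1768 bp, and its interval is also listed 3710 bp upstream of its maturation factor gene Duoxa1. Chromosomes 13 and 3 had the highest shares of single-region loci in the set, 15 of 41 and 18 of 59, and chromosome 8 the lowest, 5 of 67. The share over all was 18.5%. These are the extremes of 20 chromosomes with small counts, and those on chromosome 3 include the clustered Gstm regions.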
